A study of Mus musculus with 24 samples.

Results

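Cytosolic ribosomal proteins are the protein components of the ribosome that translates nuclear messenger RNAs, and 75 of the 12310 genes in the deposited count table were taken as members of this group. A gene was a member where its symbol was Rpl or Rps followed by a number and optional letters (a, x or l), or was Rplp0, Rplp1, Rplp2 or Rpsa, and rows named as pseudogenes by the suffix -ps were left out. GENCODE M21 annotates 71 of the members as protein-coding, 40 of the large subunit and 31 of the small subunit, and the other 4 (Rpl6l, Rpl32l, Rps3a2 and Rps3a3) as processed pseudogenes. All 75 passed the filter on low counts. Some family members, such as Rpl11, which together with Rpl5 carries the 5S ribosomal RNA, were not analysed here.

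The libraries came from MIN6 cells, a mouse insulinoma line used as a model of the pancreatic beta cell, labelled as wild type. The verapamil group had been given verapamil, a blocker of L-type calcium channels, at 50 µM for 24 h, and the control group had been left untreated for the same time, both in medium with 5.6 mM glucose after a first 24 h in culture. There were 12 libraries per group, which the methods place in 4 experiment sets of 3 per group. A single cell line carried the whole comparison, no vehicle control was named, and all p-values refer to the spread among these libraries alone.

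Ribosomal proteins are needed in matching amounts, since each ribosome holds the same set, and their messengers share a pyrimidine-rich start, the terminal oligopyrimidine (TOP) motif, through which mTORC1 and the RNA-binding protein Larp1 regulate their translation. In beta cells protein synthesis is dominated by insulin, and ribosome supply is part of the secretory capacity. Ribosomal protein genes have left many processed pseudogenes in the mouse genome, intronless copies of the messenger that short reads tell apart poorly from the parent, so members are described by their own row and, where they have copies, also by the log2 fold change of the sum with them.

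The libraries held 21840159 to 44806556 counts in the verapamil group (median 25584562) and 12590476 to 32360171 in the control group (median 26642648). Among beta-cell markers, 12 of 13 were in the table, and their summed level was 3321 to 4107 CPM (read counts scaled to library size, with TMM factors) in verapamil libraries, against 3752 to 4968 CPM in control libraries. Of the markers of other cell types, the table held 1 of 7 for other islet cells (Gcg, 176 to 333 against 174 to 198 CPM), 1 of 5 endothelial genes (Kdr, 7.18 to 18.1 against 0.56 to 3.77 CPM), 2 of 3 ductal genes (35.9 to 53.7 against 34.8 to 44.2 CPM), 1 of 6 fibroblast genes (Pdgfra, 0.092 to 1.20 against 0.67 to 1.45 CPM) and 0 of 6 leukocyte genes, with the verapamil range first. In bulk RNA fewer cells of a type and less RNA per cell cannot be told apart, and the part of these differences in the results was not tested.

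The ribosomal protein genes took a larger share of the reads after verapamil. The 75 members held 1.97% to 3.16% of a verapamil library's counts (median 2.45%), against 1.61% to 1.82% of a control library's (median 1.72%). Every verapamil library lay above every control library, and verapamil libraries were spread more widely than control libraries. With the near-identical copies counted in, the shares were 3.91% to 6.32% in verapamil libraries (median 5.00%) and 3.20% to 3.68% in control libraries (median 3.44%). The share is a description and was not tested.

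**Figure D1:**
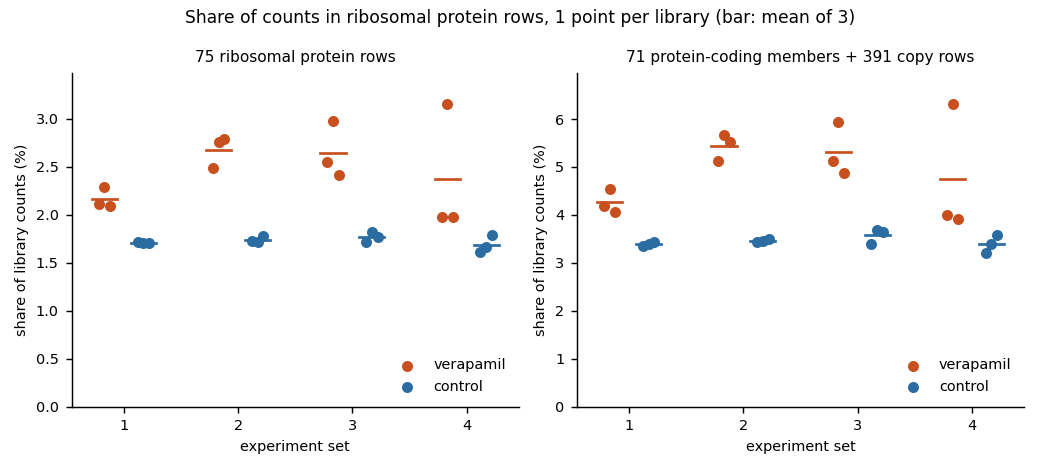
Percent of a library's counts (y axis) in the 75 ribosomal protein rows (left) and in the 71 protein-coding members with their 391 copy rows (right), by experiment set (x axis), verapamil left of control, 1 point per library and bars at the mean of 3. The verapamil libraries lie between 1.97% and 3.16% on the left, above all control libraries, and a single set 4 library is the highest of all.

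Most members rose, and none was called lower over the 24 libraries. By edgeR's quasi-likelihood test with Benjamini-Hochberg adjustment over the 12306 genes tested, 62 of the 75 members were higher after verapamil at an adjusted p under 0.05 and 0 were lower, where 31.2% of all genes tested were called higher and 31.6% lower. No member was lower at an unadjusted p under 0.05 either, and DESeq2 and limma voom called 63 and 61 members higher and 0 lower. The median log2 fold change was 0.54 over the members and -0.00 over all genes tested. The large subunit had 33 of 40 protein-coding members higher, and their median fold change on the log2 scale was 0.52, while the small subunit had 26 of 31, with 0.60. In 24 of the 75 members every verapamil library lay above every control library, which held for 4.95% of all genes.

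The rise went with a composition trend of most verapamil libraries. Across all genes, a library's log2 differences from the control mean correlated with transcript GC content at r = 0.04 to 0.63 in verapamil libraries, against -0.18 to 0.17 in control libraries, and with log2 transcript length at -0.52 to -0.04 against -0.11 to 0.11. The protein-coding members are short, with a median transcript of 714 bases against 2009 bases over the table, and have a GC content near that of the table (51.5% against 50.8%). With the GC and length trends of each library as covariates, 36 members were higher and 0 lower, with a median log2 fold change of 0.18, while all genes split into 2628 higher and 1721 lower instead of 3836 and 3890. With the trends removed from each library by offsets, 47 members were higher and the median was 0.25, while 22.5% of all genes were higher (2773, with 4149 lower) and the median over all genes was -0.07. In verapamil replicates 3 and 10 and the verapamil library of column V12 both correlations lay within the control range (0.07, 0.04 and 0.08 with GC). Their median member log2 differences from the control mean were 0.25, 0.24 and 0.19, against -0.08 to 0.10 in control libraries. Whether the trend is technical or part of the response was not tested and cannot be told apart, since it is largely confined to treated libraries.

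**Figure D2:**
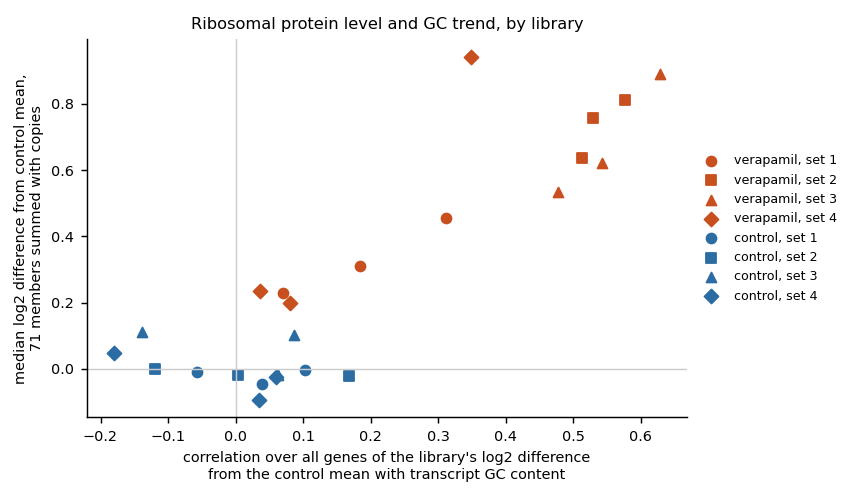
Each library's correlation with transcript GC content across all genes (x axis) against the median over the 71 members, summed with copies, of the log2 difference to the mean of the controls (y axis), verapamil in orange, control in blue, marker shape by experiment set. The 12 verapamil libraries have medians from 0.20 to 0.94, the control libraries from -0.09 to 0.11.

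The reads of most members were split with pseudogene rows. Rows whose transcript matched a member at 90% identity or more over at least 50% of its length numbered 391 for 67 of the 71 protein-coding members, and these copies held 49.1% to 51.9% of the summed counts in verapamil libraries and 49.5% to 52.2% in control libraries. The member's own row held under 10% of its sum in controls in 11 members and under 50% in 35. Rplp2, Rpl8 and Rps21 were among the 4 with no copy row. Coding parts of Rps23, Rps18 and Rplp0, each with 1 copy, are printed to show how little a read has to tell them apart. They are 60 bases each from GENCODE M21 transcripts, the first such stretch with the most differences. Bases that differ between the pair are in capitals. Rps23, a protein of the decoding centre (chr13:90922958-90924950, plus strand, 4 exons), and its intronless copy Rps23-ps1 (chr3:37714740-37715164) were identical over all 425 coding bases aligned, and Rps18 (chr17:33951999-33956001, 5 exons) differed from Rps18-ps3 (chr8:107262793-107263248, 1 exon) at 3 of 456 bases. Rplp0 (chr5:115559467-115563727, 7 exons) differed from Gm8730 (chr8:102864845-102865798, 1 exon) at 12 of 951 bases.
Rps23: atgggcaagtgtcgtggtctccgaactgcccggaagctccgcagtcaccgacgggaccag
Rps23-ps1: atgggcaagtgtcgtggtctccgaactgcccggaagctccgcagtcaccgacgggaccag
Rps18: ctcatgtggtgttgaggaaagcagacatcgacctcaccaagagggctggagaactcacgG
Rps18-ps3: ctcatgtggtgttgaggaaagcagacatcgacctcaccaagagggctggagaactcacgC
Rplp0: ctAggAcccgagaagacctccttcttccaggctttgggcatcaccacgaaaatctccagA
Gm8730: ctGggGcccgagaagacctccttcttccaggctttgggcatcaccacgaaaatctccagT

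Summed with their copies, the members moved together more closely than their own rows did. After the sums, 69 of 71 protein-coding members were higher and 0 lower, where 31% of the 11915 genes of that fit were called higher, and the median log2 fold change was 0.56 with an SD across members of 0.15, against 0.33 for the own rows. The quartiles of the members lay at 0.48 and 0.66, and the extremes were 0.05 in Rpl7l1 and 0.80 in Rpl10. All 12 verapamil libraries lay above all control libraries in 35 of the 71, which held for 5.14% of the genes. The median coefficient of variation across control libraries was 6.85% for the sums and 9.95% for the own rows, and the highest was 21.7% and 216%. The summing was chosen after seeing the data. With the GC and length covariates added to it 51 of 71 were higher with a median of 0.19, where 21.7% of all genes were higher, and with the offsets 59 with a median of 0.27, where 22.5% were.

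**Figure D3:**
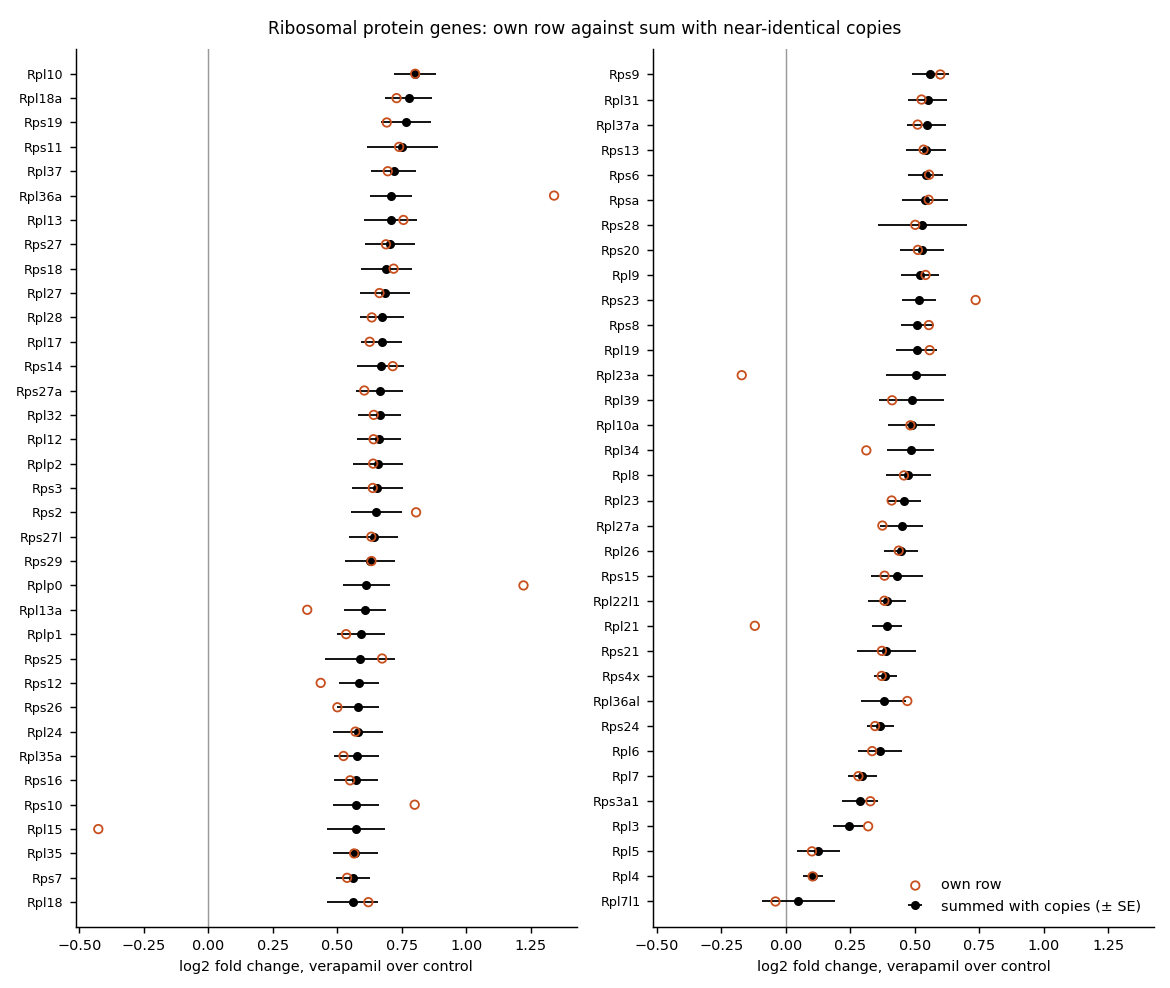
Log2 fold change, verapamil over control (x axis), of 69 of the 71 protein-coding members (y axis, sorted by the sum), as an open circle for the member's own row and a filled point with ± SE for the member summed with its copies. The sums run from 0.05 to 0.80, while own rows such as Rpl36a (1.34) and Rpl15 (-0.43) stand far from them.

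Among large subunit members with most of their reads in their own row, Rpl10 had the largest fold change. Rpl10, a protein added late to the large subunit that is needed for subunit joining (chrX:74270812-74273135), was at 764, 945 and 1224 CPM in verapamil libraries (lowest, median, highest) and 489, 539 and 644 CPM in control libraries. The groups did not overlap, and the log2 fold change was 0.80 ± 0.08 (SE, n = 12 each, edgeR adjusted p = 1.31e-08). By set the log2 fold change of Rpl10 was 0.61, 1.05, 0.82 and 0.67, and the sum with copies gave 0.80 over all sets. Rpl13, another large subunit protein, had only 46.6% of its summed counts in its own row in controls. This row was at 56.5, 101 and 145 CPM against 34.4, 56.8 and 75.5 CPM in control libraries, with 8 of 12 verapamil libraries above all controls (0.76 ± 0.14, adjusted p = 6.85e-05, and 0.71 ± 0.10 in the sum). The own row of Rpl13 gave 0.37 with the GC and length covariates and no longer passed (adjusted p = 0.0674). Rpl32l, an intronless row that resembles Rpl32, was at 22.8, 32.8 and 39.7 CPM in verapamil libraries and 16.7, 18.7 and 20.5 CPM in control libraries, without overlap (0.75 ± 0.08, adjusted p = 5.68e-08).

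The P stalk, which recruits the elongation factors to the large subunit, rose in all of its proteins. Rplp2 was at 988, 1389 and 1799 CPM in verapamil libraries against 808, 895 and 1119 CPM in control libraries, and 8 of 12 verapamil libraries were above every control library (0.64 ± 0.10, adjusted p = 5.16e-06). Rplp1 was at 25.1, 34.9 and 48.4 CPM against 20.7, 24.2 and 29.8 CPM in controls (0.53 ± 0.10, adjusted p = 0.000139, and 0.59 ± 0.09 in the sum). Its own row no longer passed with the GC and length covariates (0.06, adjusted p = 0.552) or offsets (0.02, adjusted p = 0.770). Rplp0, the base of the stalk, was low in its own row, at 2.39, 7.20 and 42.6 CPM in verapamil libraries and 1.55, 3.29 and 12.3 CPM in controls, with overlapping groups (1.22 ± 0.49, adjusted p = 0.0342). That call was lost on leaving out verapamil replicate 2 or 5 or any of 7 control libraries (adjusted p from 0.0505 to 0.105), with the GC and length covariates (0.20, adjusted p = 0.838) and with the offsets (0.79, adjusted p = 0.152). Its own row held 0.90% of its sum in controls, and the sum was 685, 952 and 1240 CPM against 582, 616 and 681 CPM in controls, without overlap (0.61 ± 0.09, adjusted p = 4.07e-06).

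In the small subunit, Rps2, a protein near the messenger entry channel (chr17:24718116-24721929), was at 153, 229 and 403 CPM in its own row in verapamil libraries and 117, 139 and 175 CPM in control libraries. The groups overlapped in 2 of 12 verapamil libraries, and the log2 fold change was 0.81 ± 0.13 (adjusted p = 1e-05). With its 33 copies Rps2 was at 3143 to 6302 CPM against 2671 to 3089 CPM in controls (0.65 ± 0.10). Rps10, which is ubiquitylated where ribosomes collide, was at 14.7, 30.9 and 56.3 CPM against 10.6, 18.2 and 28.7 CPM in controls, with overlap (0.80 ± 0.17, adjusted p = 0.000335), and with copies its log2 fold change was 0.57. Its own row gave 0.29 with the GC and length covariates and no longer passed (adjusted p = 0.229). Rpsa, also known as the laminin receptor, was at 751, 1033 and 1422 CPM against 665, 705 and 827 CPM in controls, with 9 verapamil libraries above all controls (0.55 ± 0.09, adjusted p = 2.24e-05, and 0.54 ± 0.09 in the sum). With the covariates neither its row (0.11, adjusted p = 0.109) nor its sum (0.097, adjusted p = 0.135) passed.

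Rps6, the substrate of the S6 kinases downstream of mTORC1 (chr4:86854660-86857412), was at 99.9, 109 and 184 CPM in verapamil libraries and 66.3, 78.8 and 92.7 CPM in control libraries. The groups did not overlap (0.56 ± 0.08, adjusted p = 6.49e-06, and 0.54 ± 0.07 in the sum). Rps3, which contacts the incoming messenger and also has a role in DNA repair, was at 914, 1328 and 1713 CPM against 729, 855 and 910 CPM in controls, without overlap (0.64 ± 0.10, adjusted p = 6.75e-06, and 0.65 ± 0.10 in the sum). Rps27a, made as a fusion with ubiquitin, was at 42.9, 54.9 and 101 CPM against 32.4, 39.2 and 51.5 CPM in controls, with overlap (0.60 ± 0.12, adjusted p = 0.000218, and 0.66 ± 0.09 in the sum, without overlap). The own row of Rps27a gave 0.09 with the GC and length covariates and no longer passed (adjusted p = 0.397).

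**Figure D4:**
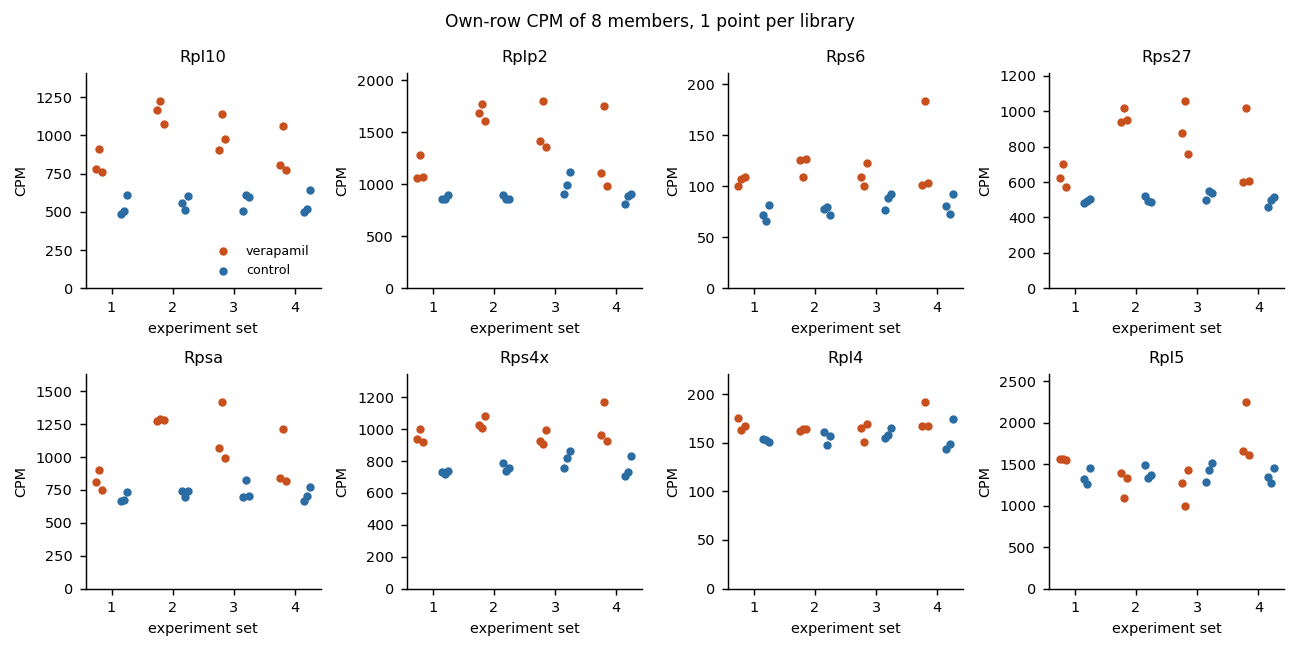
CPM of the own rows of 8 members (y axis, 1 panel each) by experiment set (x axis), verapamil in orange left of control in blue, 1 point per library. Rpl10, Rps6, Rps27 and Rps4x show no overlap between the groups, and Rpl4 shows nearly the same level in both. Rpl5 lies above control in sets 1 and 4 and not in sets 2 and 3.

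A few members differed little. Rpl4, which lines the exit tunnel, was at 151, 166 and 192 CPM in verapamil libraries and 144, 154 and 174 CPM in control libraries, with 10 of 12 verapamil libraries inside the control range (0.10 ± 0.04, adjusted p = 0.0202, and 0.11 ± 0.04 in the sum), and the call was lost with total counts as the scaling (adjusted p = 0.0909). Rpl5, whose free 5S particle binds Mdm2, was at 994, 1488 and 2253 CPM against 1259, 1358 and 1513 CPM in controls. Its verapamil libraries lay on both sides of the control range, and it did not pass the test (0.10 ± 0.09, adjusted p = 0.325, and 0.13 ± 0.08, adjusted p = 0.189, with its copies). With the GC and length covariates Rpl5 was higher (log2 fold change 0.25, adjusted p = 0.00076). Rpl7 rose with one of the smaller fold changes, at 185, 202 and 271 CPM against 153, 172 and 193 CPM in controls (0.28 ± 0.05, adjusted p = 8.41e-05, and 0.30 ± 0.06 in the sum). The intronless rows Rps3a2 and Rps3a3 had log2 fold changes of 0.30 ± 0.10 (adjusted p = 0.0158) and 0.26 ± 0.07 (adjusted p = 0.00187), and 1 verapamil library lay below the control range in each. The call of Rps3a2 was lost with the GC and length covariates (0.22, adjusted p = 0.126).

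Some rows were near 0 in part of the libraries and high in others, and their errors were far larger than those of the sums. In 7 members, among them Rpl36a, Rpl23a, Rps25, Rps18, Rpl34 and Rpl15, the own row ranged over more than 10-fold among untreated libraries, while with copies the same members ranged over 1.1-fold to 1.8-fold. Rpl36a, a large subunit protein at the tRNA exit site, was at 0, 5.66 and 301 CPM in verapamil libraries and 0.035, 3.67 and 158 CPM in controls (1.34 ± 1.14, adjusted p = 0.312), but its sum was 453, 584 and 799 CPM against 318, 359 and 436 CPM in controls, without overlap (0.71 ± 0.08, adjusted p = 1.64e-07). Rpl15 was at 3.65, 5.16 and 94.2 CPM in its own row against 1.34, 3.45 and 105 CPM in controls (-0.43 ± 0.77, adjusted p = 0.645). Without verapamil replicate 6, the highest verapamil library, it was called lower (-1.77, adjusted p = 0.0274), and summed with its 8 copies it was higher, at 224, 314 and 403 CPM against 172, 194 and 304 CPM in controls (0.57 ± 0.11, adjusted p = 0.000135).

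Of the 12 protein-coding members that did not pass in their own rows, 10 passed when summed, and Rpl5 and Rpl7l1 did not. Rps18 was at 0.231, 140 and 268 CPM in verapamil libraries and 0.080, 113 and 160 CPM in controls (0.72 ± 0.74, adjusted p = 0.408), and its sum did not overlap between groups, at 455 to 897 CPM against 379 to 454 CPM in controls (0.69 ± 0.10). Rps25, which lies by the tRNA path in the head of the small subunit, had an own-row log2 fold change of 0.67 ± 0.62 (adjusted p = 0.351) and one of 0.59 ± 0.14 (adjusted p = 0.0007) in the sum. Rps28 was at 0.185, 442 and 700 CPM against 226, 318 and 366 CPM in controls (0.50 ± 0.39, adjusted p = 0.272). The lowest value was that of verapamil replicate 5, and without it Rps28 was higher (0.62, adjusted p = 1.22e-05). Rpl34 (0.31 ± 0.51) and Rpl23a (-0.17 ± 1.22), whose protein binds nascent-chain factors at the tunnel exit, had adjusted p of 0.606 and 0.91 in their own rows, and log2 fold changes of 0.48 ± 0.09 and 0.51 ± 0.12 in the sums (adjusted p = 9.5e-05 and 0.000711).

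A member and its copy mirrored each other across control libraries. The CPM of Rps23 and Rps23-ps1 correlated at r = -0.61 over the 12 verapamil libraries and -0.97 over the 12 control libraries, while the 2 rows together held 748 to 1169 CPM in verapamil libraries and 578 to 735 CPM in controls. For Rps25 and Rps25-ps1 r was -0.78 in verapamil libraries and -0.99 in controls, and for Rps18 and Rps18-ps3 it was -0.24 and -0.97. Rpl36a with Rpl36a-ps2 gave -0.66 in verapamil libraries and -0.79 in controls, and Rps28 with Gm10263 gave -0.74 and -0.80. In controls the 2 rows together held 43.3 to 90.7 CPM for Rps25, 90.8 to 214 CPM for Rps18 and 288 to 407 CPM for Rpl36a. Gm10263 was low, at 3.83 to 44.6 CPM in verapamil libraries, and did not balance the Rps28 row. That pair together ran from 44.8 to 712 CPM in verapamil libraries and from 237 to 371 CPM in controls. These are descriptions over libraries that share a total, and the pairs were chosen after seeing the data.

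**Figure D5:**
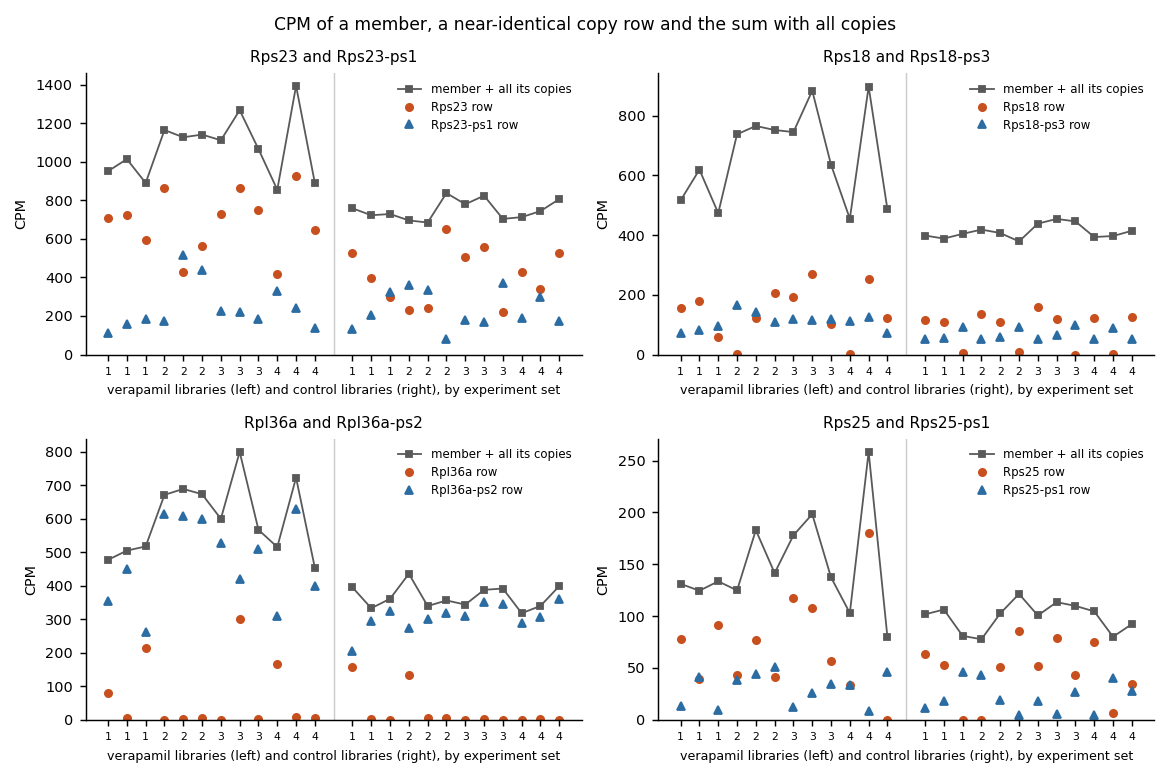
CPM (y axis) of the member row (orange circles), a near-identical copy row (blue triangles) and the member with all its copies (grey squares) for Rps23, Rps18, Rpl36a and Rps25, with verapamil libraries left and control libraries right, ordered by experiment set (x axis). In the Rpl36a panel the member row is near 0 in most libraries, while the sum stays between 453 and 799 CPM in verapamil and between 318 and 436 CPM in control libraries.

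The number of members called, and the median fold change, differed between the experiment sets. Of the 75 members, 10 were called higher in set 1, where 5.88% of all genes were, 50 in set 2 (25.3% of genes), 46 in set 3 (23.2%) and 37 in set 4 (8.28%), and the medians of the log2 fold changes were 0.33, 0.70, 0.62 and 0.52. In set 3, 1 member was called lower, Rpl15 in its own row (-3.27, adjusted p = 0.00642). With copies, 12, 61, 60 and 51 of 71 were higher, against 5.85%, 25.7%, 23.9% and 8.25% of the genes, with medians of 0.35, 0.76, 0.64 and 0.54. The mean correlation with GC content of the verapamil libraries was 0.19, 0.54, 0.55 and 0.16 in the same sets. With log2 transcript length it was -0.16, -0.28, -0.30 and -0.21. A single set 4 verapamil library, from an unnumbered column, held 3.16% of its counts in the members, against 1.97% and 1.98% in the other set 4 verapamil libraries. Without it 62 members were higher over all sets, with a median of 0.49.

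By the test of treatment by set, 1 member differed between sets in its own row and 1 in the sum, where 9.72% and 10.6% of all genes did. Rpl15 was that member in its own row (adjusted p = 0.0164), with log2 fold changes of 0.64, 3.51, -3.27 and 0.28 in sets 1 to 4. In the sum its values were 0.43, 0.93, 0.38 and 0.54 and it was not called. Rpl5 was the member called in the sum (adjusted p = 0.0498), with log2 fold changes of 0.23, -0.06, -0.18 and 0.44. In set 4 the Rpl5 row was at 1609 to 2253 CPM in verapamil libraries and 1277 to 1454 CPM in controls (adjusted p = 0.0289), and in set 3 at 994 to 1431 CPM in verapamil libraries and 1278 to 1513 CPM in controls.

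Several ribosomal proteins have a paralogue that can replace them in the ribosome. Rps27l, a p53 target, was at 10.2, 14.2 and 18.1 CPM in verapamil libraries and 7.47, 8.42 and 11.1 CPM in controls (0.63 ± 0.09, adjusted p = 3.48e-06, and 0.64 ± 0.09 in the sum), and Rps27 at 574, 816 and 1057 CPM against 460, 499 and 548 CPM in controls (0.69 ± 0.10, adjusted p = 1.95e-06, and 0.71 ± 0.10 in the sum). Their log2 ratio differed by -0.04 between the groups (permutation test, two-sided, p = 0.573, adjusted over 3 pairs 0.573). Rpl36al was at 3.66, 6.0 and 8.89 CPM against 3.68, 4.26 and 5.42 CPM in controls (0.47 ± 0.13, adjusted p = 0.003, and 0.38 ± 0.09 in the sum). Its own-row call was lost with the GC and length covariates (0.077, adjusted p = 0.731), with the offsets (0.21, adjusted p = 0.106) and without set 2 (0.36, adjusted p = 0.0666), and the call of the sum with the covariates (0.12, adjusted p = 0.335) and offsets (0.14, adjusted p = 0.0941). Summed with copies, the log2 ratio of Rpl36al to Rpl36a was -5.08 ± 0.20 in verapamil libraries and -4.75 ± 0.12 in controls (SD), a difference of -0.33 (permutation adjusted p = 0.0003), with 10 of 12 verapamil libraries below all controls. On sums per set the exact permutation test gave p = 0.0286, the smallest that 4 against 4 allows. With own rows alone that ratio spread over 3.79 and 3.66 (SD) and did not differ (-1.79, permutation adjusted p = 0.377). Rpl7l1, known in yeast and human cells for a role in early large subunit assembly, was at 0.048, 2.18 and 2.56 CPM against 0.568, 1.90 and 3.47 CPM in controls (-0.04 ± 0.30, adjusted p = 0.914), and its ratio to Rpl7 in the sums differed by -0.29 (permutation p = 0.0379, adjusted 0.0568, with 0.0286 in the exact permutation test on sums per set). Rpl22l1, the paralogue of Rpl22, was at 448, 560 and 810 CPM against 378, 435 and 497 CPM in controls (0.38 ± 0.07, adjusted p = 0.000133, and 0.39 ± 0.07 in the sum). With the covariates neither its row (0.09, adjusted p = 0.157) nor its sum (0.095, adjusted p = 0.120) passed, and Rpl22 itself was not analysed here.

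Per kilobase of transcript and summed with copies, the median level of the members was 770 CPM per kb in verapamil libraries and 514 CPM per kb in controls, and the order of the members was nearly the same in both (Spearman rho 0.99 across the 71 genes). Rps2 was the highest, at 4509 ± 1085 against 2872 ± 140 CPM per kb (SD, n = 12 each), followed by Rplp2 at 3160 ± 709 against 2005 ± 179 CPM per kb. The lowest were Rps27l at 46.9 ± 9.55 against 29.99 ± 3.10, Rpl35 at 30.9 ± 6.15 against 20.8 ± 1.53, Rpl36al at 23.4 ± 4.35 against 17.98 ± 1.78 and Rpl7l1 at 3.45 ± 0.95 against 3.35 ± 0.60 CPM per kb. Across the 71 members the summed log2 fold change correlated with GC content at r = 0.25 (rho 0.22), with log2 transcript length at r = -0.36 (rho -0.32) and with the control level at r = 0.26 (rho 0.21). These are correlations across genes, which are not independent replicates.

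The start of the gene was searched for the pyrimidine run of a TOP messenger, defined as a C followed by at least 7 more C or T, beginning within 40 bases before to 20 after the annotated start. RefSeq promoters (GRCm38.p6) matched 55 of the 75 members, and 26 of these (47.3%) held such a run on the coding strand, against 19.5% of 8194 other genes of the table and 20% of 27025 promoters in all. On the opposite strand the run was found in 16.4% of the members, 21.5% of other table genes and 21.4% of all promoters. Of the other TOP messengers 2 of 10 (20%) held a run on the coding strand, of the translation factors 12 of 40 (30%) and of the mitochondrial ribosomal proteins 14 of 60 (23.3%), so the search found few of the messengers listed as TOP. Runs were 8 to 20 bases long with a median of 10. Summed with copies, the log2 fold change had a median of 0.57 (0.11 to 0.71) in 25 protein-coding members with a run and of 0.54 (0.05 to 0.80) in 29 without. The printed examples were picked to span the range of fold changes, from 0.71 in Rpl13 and Rps27 to 0.13 and 0.11 in Rpl5 and Rpl4. They lie at chr8:123102328-123102357 (Rpl13, plus strand), chr3:90213627-90213656 (Rps27, minus), chr7:141447641-141447670 (Rplp2, plus), chr4:86857345-86857374 (Rps6, minus), chr5:107900502-107900531 (Rpl5, plus) and chr9:64173364-64173393 (Rpl4, plus), with the run in capitals.
Rpl13: acgtcaCTTCCCTTTCgcctgattttgatt
Rps27: ctttcgCTCCTTTCCggcggtgacgacctc
Rplp2: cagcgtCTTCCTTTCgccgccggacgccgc
Rps6: gtcgggCCTCTTTTTCgtgacgcctcccag
Rpl5: cagccaCTCTTTCTCacgtcgcttgcgtgc
Rpl4: acaagtCTTTCCTTTTCCTgtgggagcagc

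Other genes of translation were called in both directions, read against the same 31.2% of all genes higher and 31.6% lower. Of the ribosome genes outside the symbol rule, all 3 tested were higher, among them Fau (log2 fold change 0.60), which encodes a fusion of a ribosomal protein with a ubiquitin-like protein, and Rack1 (0.55). Of 16 other TOP messengers 9 were higher and 4 lower (median 0.18), among them the elongation factor subunit Eef1g (0.60) and the growth-related Tpt1 (0.52) higher, and the histone chaperone Nap1l1 lower (-0.63). Of 51 translation factors 25 were higher and 15 lower (median 0.13, range -0.97 to 0.60). Among the lower were Eif5a2 (-0.97), Eif3a (-0.94) and Eif5b (-0.85). Mitochondrial ribosomal proteins, which serve the separate ribosome of mitochondria, were higher in 42 of 67 and lower in 1 (median 0.28), with Mrpl36 (0.61), Mrps34 (0.60) and Mrps24 (0.58) higher. With the GC and length covariates 21.4% of all genes were higher (2628, with 1721 lower). There 5 mitochondrial ribosomal proteins were higher and 2 lower (median 0.03), and 15 translation factors were higher and 5 lower. Of the TOP messengers 8 were higher and 1 lower, and 2 of the 3 ribosome genes were higher. With the offsets 22.5% of all genes were higher (2773, with 4149 lower). Mitochondrial ribosomal proteins then had 25 higher and 7 lower (median 0.12), and translation factors 20 and 9. The TOP messengers had 8 and 2, and 1 of the 3 ribosome genes was higher.

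Factors that make ribosomes and their regulators were called in both directions, where 31.2% of all genes were higher and 31.6% lower. Of 67 ribosome biogenesis factors 27 were higher and 18 lower (median 0.04, range -0.93 to 0.66). Among the lower were the box C/D snoRNP protein Nop58 (-0.93) and the helicases Ddx10 (-0.79) and Ddx52 (-0.77). Of 13 genes of RNA polymerase I, which transcribes ribosomal RNA, 5 were higher and 3 lower (median 0.16), with its subunit Polr1d higher (0.41) and Taf1d (-1.13) and Twistnb (-0.87) lower. Of 37 genes of mTORC1 and TOP control 15 were higher and 7 lower (median 0.14, range -0.94 to 0.68). Among the lower were Rragb (-0.94), the S6 kinase Rps6kb1 (-0.82) and Larp4 (-0.64). Of 7 regulators linked to free ribosomal proteins 3 were higher and 2 lower, with Bbc3 (0.59) and Myc (0.57) higher and Mdm4 (-0.89) lower. With the GC and length covariates 21.4% of all genes were higher (2628, with 1721 lower). Of the biogenesis factors 14 were then higher and 1 lower (median 0.07), and of the RNA polymerase I genes 4 and 1. At most 1 of the genes named lower in each of these lists thus kept that call. The mTORC1 and TOP genes had 15 and 2, so not all of those named lower kept that call. The 7 regulators had 3 and 0, so Mdm4 was no longer called lower. With the offsets 22.5% of all genes were higher (2773, with 4149 lower). The biogenesis factors then had 19 higher and 10 lower, and the RNA polymerase I genes 6 and 3. The mTORC1 and TOP genes had 9 and 7 (median 0.02), and the 7 regulators 3 and 1. Ribosomal protein rows with the suffix -ps, which were no members, were higher in 112 of 139 and lower in 0 (median 0.48), in 44 and 0 with the covariates, and in 59 and 1 with the offsets. The near-identical copy rows outside the rule were higher in 297 of 387 and lower in 0 (median 0.48), whereas other processed pseudogenes were higher in 364 of 1347 and lower in 316 (median 0.02). The lists were described and not tested against each other.

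The genes outside the group whose levels followed the mean of the members most closely, over the 24 libraries and among 8692 genes with at least 5 CPM, were Pomp, which assembles the proteasome (r = 0.95), Rab5if (0.94), Wdr74, a large subunit assembly factor (0.94), a gene model without a usual symbol (0.94) and the prefoldin subunit Pfdn1 (0.93). The correlation includes the difference between the groups, and nothing is read from it about shared control.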

How the data were processed

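RNA from 24 MIN6 libraries was sequenced as paired ends. The deposited values are raw counts of reads for each gene. The submitters' processing notes name GRCm38 (mm10), HTSeq 0.9.1 for counting, HISAT2 2.1.0 for alignment, Trimmomatic 0.39 and bcl2fastq 2.20. HTSeq's strand setting and gene annotation were not given in the sources used here, and the labels and the design text name different library kits. The authors also deposited columns of their own comparison (average log2 CPM, fold change as a ratio and as log2, p-value, adjusted p-value and a log10 column), which were not used. Every row names a gene.

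Counts were fitted with edgeR 4.0.16 in R 4.3.3 (filterByExpr, TMM, quasi-likelihood test on the group alone, Benjamini-Hochberg over all genes tested, threshold 0.05), and the fit was tested on simulated data. CPM were computed on TMM-scaled library sizes. Alternatives used DESeq2 1.42.0 and limma 3.58.1. Copies were found with blastn 2.17.0 on GENCODE M21 transcripts (90% identity, 50% of the length), and gene coordinates come from that annotation, to which 12308 of 12310 genes matched. Ratios of paralogues were compared by permutation of libraries with scipy 1.17.1. Genes that overlap others or have near-identical copies are uncertain. No 2 libraries of a group agreed within sampling noise.

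Groups came from the treatment label. Sets were read from the first digit of each description together with the 4 sets in the methods, and 4 columns whose names matched several samples entered as unnumbered replicates of their group. The design text instead speaks of 12 independent experiments. Named members were the 8 with the largest and the 8 with the lowest fold change at 5 CPM or more, paralogue pairs, the P stalk, Rpsa, Rpl5, Rps6, Rps3, Rpl10 and Rps27a, and up to 6 that did not pass. Up to 3 members of each related list at 1 CPM or more and the 5 genes most like the members were also eligible, and other names (Rps23, Rps28 with Gm10263, Rps4x and the genes without copies) were chosen after their values were seen. Some genes that the rule names are not reported here. Members, lists and tests were chosen with earlier results of these data known.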

Additional observations from a re-analysis of the deposited data

Results flagged for a closer look

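The treatment effect on Rpl15, a large subunit protein, differed between the experiment sets in its own row (edgeR interaction test, adjusted p = 0.0164). The own-row level was above 50 CPM in 1 verapamil library of set 2 and in 2 control libraries of set 3 and near the other libraries elsewhere, and the row holds 8.25% of the member's sum with its copies, for which no difference between sets was called.

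The effect on Rpl5, the 5S particle protein, differed between sets when summed with its copies (adjusted p = 0.0498). The sum was at 2121 to 3010 CPM in verapamil libraries of set 4 and 1696 to 1930 CPM in its controls, and at 1388 to 1857 CPM in verapamil libraries of set 3 and 1701 to 2016 CPM in its controls.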

How the results depend on the processing

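The number of members called higher was within 1.5 times of 62, with 0 lower, under total-count scaling, TMM without ribosomal protein rows, DESeq2, no filter, limma voom, counts summed per set, a set block, each set or set of verapamil libraries left out, and pseudogene rows added to their parent, except that without set 2 there was 1 lower (Rpl15). Leaving out 1 library at a time gave 61 to 63 higher, 0 to 1 lower (1 without verapamil replicate 6) and medians of 0.49 to 0.57. With the replicate block 61 were higher (median 0.52). The 10 shared replicate numbers correlated at -0.05 to 0.11 with 2 over 0.1, so they do not pair the samples. With GC and length covariates 36 were higher (median 0.18) and with these in the replicate block 30 (median 0.24). With offsets the median was 0.25, and in the sums with copies, chosen after seeing the data, 0.19 with covariates and 0.27 with offsets. The sums turned the Rpl36al to Rpl36a difference into a called -0.33. Sign turns are listed where the main fit or the repeat was called. Rpl7l1 with copies (from -0.04 to 0.05) was called in neither and is not among them. Signs turned for Rpl15 under DESeq2 (0.53), without set 3 (2.19), with -ps rows (0.55), with copies (0.57) and with copies and offsets (0.19). For Rpl23a they turned with copies (0.51) and with copies and offsets (0.28). In the replicate block with covariates they turned for Rplp1 (-0.00197) and Rps27a (-0.082). The cause was not tested. Of 1354 repeats over 29 named members, 1267 kept the call, and also the direction where the gene was called. Another 52 lost and 26 gained the call, and 9 turned sign with a call in at least 1 of the fits. Fewer genes were called with covariates (2628 higher, 1721 lower) and, after summing per set, 3005 and 2124.

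Limits are the single cell line, the unstated strand setting, the reading of sets from label digits, and the reads shared with copies. Counting error weighs most on own rows of few counts, such as Rpl7l1 (1 to 99 counts per library) and Rpl21 (5 to 40).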
